A study of Homo sapiens with 15 samples.

Results

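HCT116 is a human colon cancer cell line, and the 6 tumors compared here were xenografts of it in athymic nude mice that differed in a single lysine of the transfected protein, modulator of apoptosis 1 (MOAP-1). In 3 tumors Myc-tagged MOAP-1 carried the change K264R and in 3 tumors the change K278R, each a lysine (K) replaced by arginine (R) at the numbered residue. They were chosen by the construct in the sample titles and are 6 of the 15 tumors of the series, which also holds 3 tumors each with wild type MOAP-1, empty vector and the Ras association domain family 1A protein (RASSF1A). Each tumor was hybridized alone to a one-color human array, and all 5 groups share the host strain and the endogenous MOAP1 gene. The cells had been transfected transiently as pools before injection, so the arrays report grown tumors and not the cells at the time of transfection. Whether the 3 tumors of a construct came from separate transfections is not given in the sources used here, so the p-values measure the spread between tumors.

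MOAP-1 binds RASSF1A and tumor necrosis factor receptor 1 and, through a stretch like a BH3 domain, activates BAX, which permeabilizes mitochondria during apoptosis. Its amount in cells is set in part by ubiquitin, a small protein that is joined to lysines, and arginine keeps the charge of lysine but cannot carry ubiquitin. A direct comparison of both mutants asks whether tumors with the one or the other lysine replaced differ in their transcripts.

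Levels are log2 values of the scanner's processed signal with the 75th percentile of each array set to 0, and a difference is the mean of the K264R tumors minus the mean of the K278R tumors on that scale. The tumors carried the epithelial label of the cell line in both groups: EPCAM, KRT8, KRT18 and KRT19 lay above the levels of 97.5% to 99.9% of probes. CDH1, CDX2 and VIL1 lay above 86.5%, 61.7% and 28.4% of probes and were well above background in all 6 tumors. K278R tumor 2 stood apart from the rest. Its 75th percentile signal was 496 against 931 to 1402 in the other 5, and its spike-in controls, RNAs added in fixed amount, averaged 0.97 on the log2 scale against -1.39 to -0.88. Results are therefore also given without it. The 3 K264R tumors shared a slide of their own and the 3 K278R tumors shared another with 1 MOAP-1 tumor, so slide and mutant cannot be told apart.

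**Figure D1:**
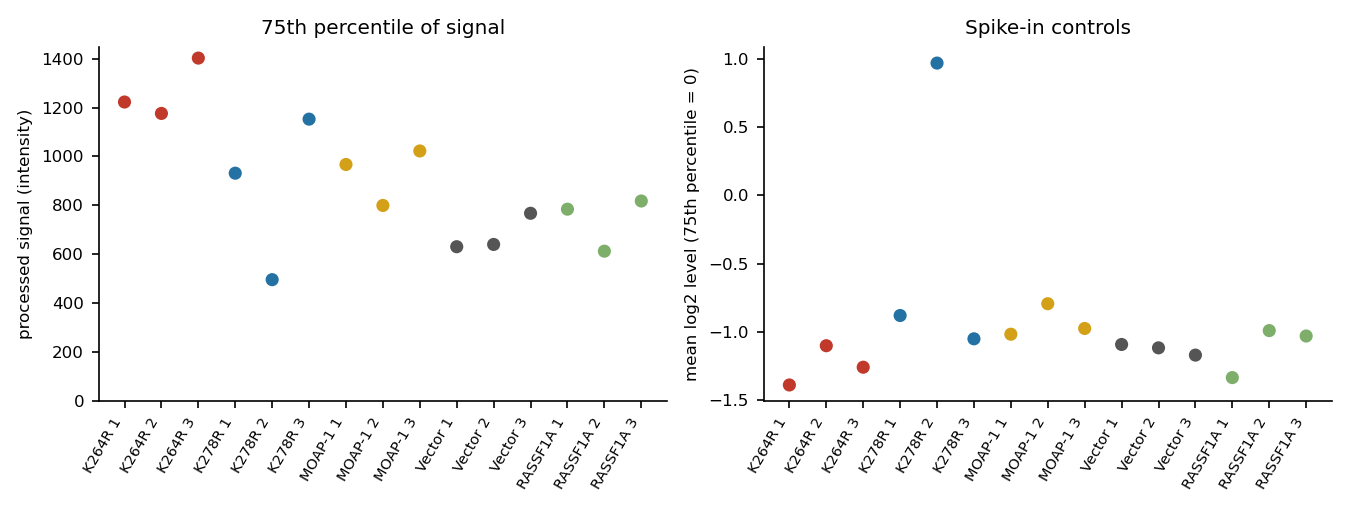
The left panel plots the 75th percentile of the processed signal (intensity) and the right panel the mean log2 level of the spike-in controls relative to that percentile, with 1 point for each of the 15 tumors. K278R tumor 2 has the lowest signal, 496, and the highest spike-in level, 0.97.

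The MOAP1 transcript itself did not separate the mutants. It measured 0.11, 0.46 and 0.25 in K264R tumors 1 to 3 and 0.44, 0.42 and 0.53 in K278R tumors 1 to 3, against -0.53 to -0.13 in vector tumors and 0.34 to 0.71 in MOAP-1 tumors. The ranges of both mutants overlapped, and the difference was -0.19 ± 0.14 (SE, n = 3 and 3 tumors, limma adjusted p = 0.373). Where the probe lies in the transcript is not given in the sources used here, so it does not tell transfected from endogenous MOAP1. RASSF1 differed by -0.04 ± 0.10 (SE, limma adjusted p = 0.825). Of the 17 genes listed for the route from MOAP-1 to BAX, 0 were called, where called means a limma adjusted p below 0.05 and a difference of at least 1.5-fold. At their brightest probe 0.201% of all genes were called higher and 0.386% lower. Without adjustment the limma p was below 0.05 for 2 of the 17, against 27.9% of all genes. BAX, the effector of this route, measured 1.28 to 1.58 in K264R and 1.53 to 1.85 in K278R tumors, a difference of -0.27 ± 0.15 (SE, limma adjusted p = 0.236). TRIM39, a ubiquitin ligase that binds MOAP-1, had the widest difference of the list, -0.58 ± 0.22 (SE, limma adjusted p = 0.13).

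Over all probes, 180 of the 24877 genes tested differed between the mutants (0.724%), 64 higher and 116 lower in K264R tumors. The median gene was 0.14 lower in K264R, so directions are also read against that shift. The split depended on the scaling: quantile normalization, which gives all arrays the same distribution, moved the median gene to -0.02 and called 115 genes higher and 30 lower. All 64 genes called higher were called higher there too, but only 30 of the 116 called lower. Of the 117 probes called lower, 81 lay in the dimmer 2 of 5 equal level classes, where the median difference ran from -0.28 to -0.17, against 19 of the 66 called higher. The count also rested on single tumors. It was 6 without K264R tumor 1, 56 without tumor 2 and 12 without tumor 3, and 8 without K278R tumor 1, 73 without tumor 2 and 1620 without tumor 3. With only the 6 arrays in the fit, 0 genes passed in limma, although 25.0% of probes had an unadjusted p below 0.05.

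**Figure D2:**
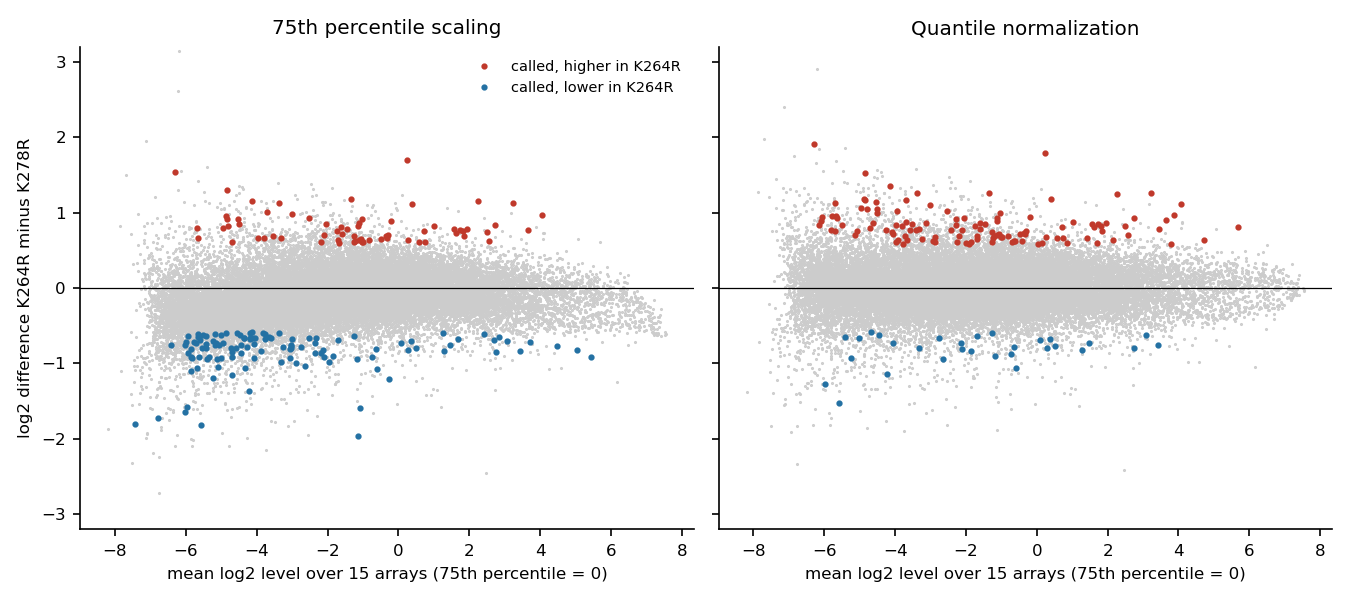
Each point is 1 of 30347 probes, with its mean log2 level over 15 arrays on the x axis and the log2 difference K264R minus K278R on the y axis, under 75th percentile scaling (left) and quantile normalization (right). Blue points, called lower in K264R, crowd at low levels on the left and thin out on the right, from 116 to 30 genes, while the red points, called higher, grow from 64 to 115 genes.

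Genes of cholesterol synthesis and uptake were higher in K264R tumors. Cells make cholesterol from acetyl-CoA through mevalonate, and when membrane cholesterol falls, the transcription factor SREBP2 leaves the endoplasmic reticulum and turns on most genes of the pathway together. Of the 24 genes listed, all were measured, 21 were higher in K264R, and 7 rose, against 0.201% of all genes called higher at their brightest probe and 0.386% called lower. None of the 24 was called lower. In 16 of the 24 the lowest K264R tumor lay above the highest K278R tumor, which was true of 7.26% of all genes. The list median was 0.55, which is 0.69 above the median of all genes, and it was 0.61 under quantile normalization and 0.69 without K278R tumor 2. The mean level of the list was 1.38 to 1.42 in K264R tumors and 0.64 to 0.96 in K278R tumors, against 0.69 to 0.90 with vector, 0.95 to 1.21 with MOAP-1 and 0.90 to 0.98 with RASSF1A.

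HMGCS1, which condenses acetyl-CoA into HMG-CoA, had the largest difference of the list. It measured 1.52, 1.14 and 1.56 in K264R tumors 1 to 3 and -0.69, -0.48 and 0.29 in K278R tumors 1 to 3. The groups did not overlap, and vector tumors, at -0.68 to -0.36, lay with the K278R tumors. The rise was 3.25-fold, 1.70 ± 0.21 (SE, limma adjusted p = 0.00768), and 1.60 without K278R tumor 2 (adjusted p = 0.027), but without K264R tumor 1 the adjusted p was 0.0573.

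INSIG1, a membrane protein that holds the SREBP complex in the endoplasmic reticulum and is itself made under SREBP control, measured 1.14, 1.04 and 1.18 in K264R and 0.18, -0.03 and -0.14 in K278R tumors. It rose by 1.12 ± 0.13 (SE, limma adjusted p = 0.00733), with vector tumors at -0.10 to 0.04. MSMO1, a demethylase of sterol intermediates, measured -0.16, -0.24 and -0.36 in K264R and -1.39, -1.45 and -1.45 in K278R tumors and rose by 1.18 ± 0.18 (SE, limma adjusted p = 0.02). Here the K278R tumors were themselves above vector, at -2.34 to -1.84. The call of MSMO1 was lost without K264R tumor 1, 2 or 3 (adjusted p = 0.101, 0.058 and 0.0821) and without K278R tumor 1 (0.0925). INSIG1 kept an adjusted p below 0.05 in limma with any 1 of the 6 tumors left out.

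Also called, and named after their values were seen, were STARD4, a carrier of cholesterol between membranes (0.92 ± 0.12, SE, limma adjusted p = 0.00907), and FDFT1, squalene synthase (0.78 ± 0.13, adjusted p = 0.026). CYP51A1 missed the call by its size, at 1.48-fold (adjusted p = 0.0438). SQLE, which oxidizes squalene, differed by 0.56 (adjusted p = 0.0865). The transcript of SREBF2, which encodes SREBP2, differed by 0.09 (adjusted p = 0.561). Against vector, the median of the list was 0.44 in K264R and -0.05 in K278R tumors, 2 comparisons that share the vector tumors.

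**Figure D3:**
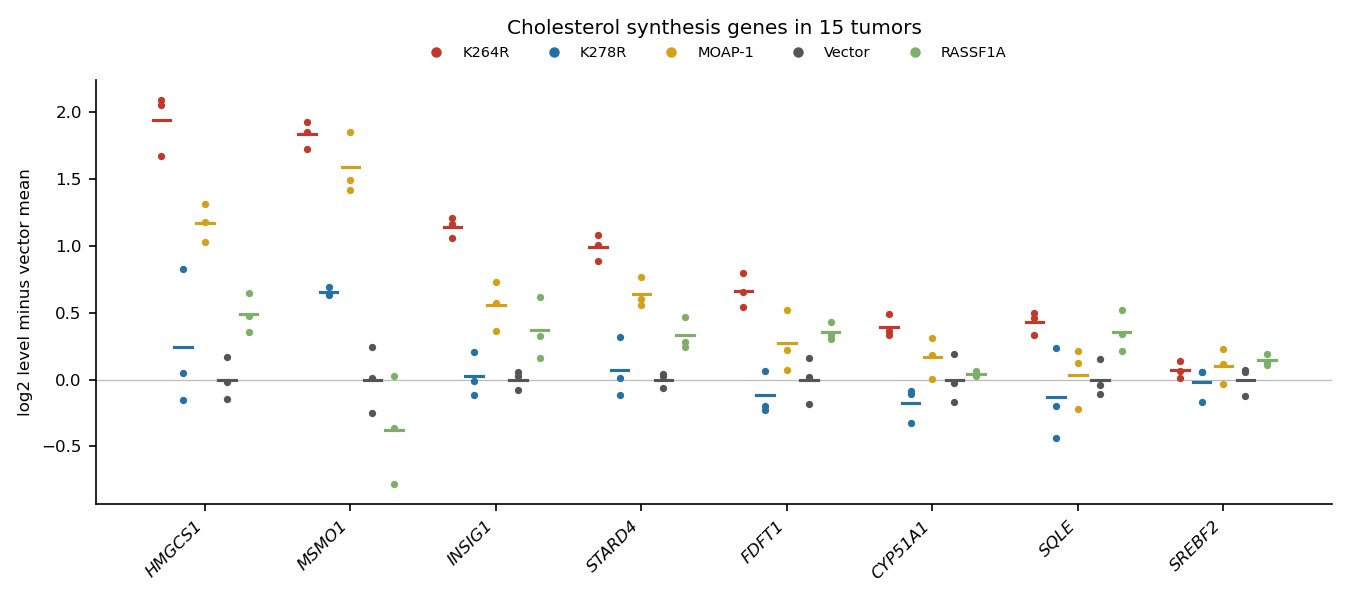
Each point is a tumor and each short line a mean of 3 tumors, for 8 of the 24 cholesterol genes, those described in the text, ordered by their difference, and the y axis is the log2 level minus the mean of the vector tumors. For HMGCS1, MSMO1 and INSIG1 the 3 K264R tumors lie above all 3 K278R tumors, and the MOAP-1 means lie between those of both mutants.

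Genes of fatty acid synthesis, a list added after the values were seen, had a median difference of 0.35 over 12 genes, against -0.14 over all genes. SCD, the desaturase that makes oleate, measured 2.41, 2.29 and 2.25 in K264R and 1.33, 1.59 and 1.70 in K278R tumors. It was the only one of the 12 called (0.78 ± 0.11, SE, limma adjusted p = 0.0182). At their brightest probe 0.201% of all genes were called higher and 0.386% lower. ACLY, which supplies cytosolic acetyl-CoA, was 0.55 higher (adjusted p = 0.0338), under 1.5-fold, and FASN differed by 0.21. Outside both lists, LIPG, the endothelial lipase, was 2.18-fold higher in K264R (1.12 ± 0.19, SE, limma adjusted p = 0.0246), measuring -2.80 to -2.45 in K264R and -3.78 to -3.65 in K278R tumors. LIPG was 0.66 higher under normexp without spots of extreme local background, and its call was lost without K264R tumor 1 or 3 (adjusted p = 0.118 and 0.114) or K278R tumor 1 or 2 (0.107 and 0.0515).

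Of the ligands of the epidermal growth factor (EGF) receptor, AREG, EREG and EPGN rose in K264R tumors. These proteins are cut from the cell surface and drive division of epithelial cells, and colon cancer cells commonly make amphiregulin and epiregulin. Of the 7 ligand genes, a family also listed after the values were seen, 3 rose in K264R and 0 fell, against 0.201% and 0.386% of all genes, and the other 4 ran from -0.31 to 0.34. AREG, amphiregulin, measured 3.92, 3.84 and 3.90 in K264R and 2.79, 2.49 and 2.98 in K278R tumors at one probe (1.13 ± 0.17, SE, limma adjusted p = 0.0182), and its second probe differed by 0.96 ± 0.15 (adjusted p = 0.0192). The first probe lost its call without K264R tumor 1 or 3 (adjusted p = 0.0919 and 0.086) and without K278R tumor 1 (0.0882). EREG, epiregulin, measured 3.25, 2.96 and 3.33 against 2.20, 2.53 and 2.31 and rose by 0.83 ± 0.14 (adjusted p = 0.0246). EPGN, epigen, was near the floor of the array, at -4.81, -5.46 and -5.10 against -6.91, -6.18 and -6.89, and rose by 1.54 ± 0.27 (adjusted p = 0.0315). Under the normexp background model without spots of extreme local background EPGN differed by 0.0018 (adjusted p = 0.995), and its call was lost without K264R tumor 1 or 3 (0.144 and 0.124) or K278R tumor 1 (0.125).

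The K264R and K278R tumors did not overlap at any of these 4 probes. Vector tumors measured 2.46 to 2.72 for EREG and -7.11 to -6.94 for EPGN. The 3 genes lie close together on chromosome 4 (EPGN from 74308470, EREG from 74365145 and AREG from 74445136 in GRCh38.p14). BTC, betacellulin, which starts at 74744759 on the same chromosome, differed by -0.26, and the remaining ligands HBEGF, TGFA and EGF by 0.34, -0.30 and -0.31, with adjusted p of 0.161 or more.

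Transcripts of mitosis were higher in K264R as well. Of 34 listed genes, 29 were higher in K264R, with a median of 0.33, which is 0.47 above all genes. All 3 K264R tumors lay above all 3 K278R tumors for 20 of them and below for 2, against 7.26% and 26.8% of all genes. At the brightest probe AURKA and BUB1 rose and 0 fell, against 0.201% and 0.386% of all genes. AURKA, the kinase that matures spindle poles, measured 0.28, 0.39 and 0.16 in K264R and -0.52, -0.35 and -0.37 in K278R tumors (0.69 ± 0.14, SE, limma adjusted p = 0.0438). BUB1, a kinase of the spindle checkpoint, measured -0.07, -0.08 and 0.13 against -0.90, -0.68 and -0.41 (0.66 ± 0.13, adjusted p = 0.038). Without K278R tumor 2 the adjusted p of AURKA and BUB1 was 0.0667 and 0.0673, with differences of 0.72 and 0.65. Both calls were also lost without any 1 of the K264R tumors or K278R tumor 1 (adjusted p from 0.0626 to 0.166) and held without K278R tumor 3.

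TOP2A and ANLN had larger differences, of 1.17 and 1.11, and TTK was 2.14-fold higher, but K278R tumor 3 lay well above the other 2 K278R tumors at each and the limma adjusted p was 0.0583 for each. Probes of 1 gene did not always agree. CCNB1, the cyclin that drives entry into mitosis, was called higher at one probe (0.76 ± 0.13, SE, limma adjusted p = 0.026) and measured -0.26 ± 0.12 at its brightest (adjusted p = 0.182). KIF23 was called at its dimmer probe (0.66, adjusted p = 0.0384) and differed by 0.25 at the brighter. MKI67, a common mark of cycling cells, differed by -0.17. Among the 36 DNA replication genes 32 were higher in K264R and 0 were called, with a median of 0.18 and an unadjusted p below 0.05 for 10 of them in limma, near the 27.9% of all genes.

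**Figure D4:**
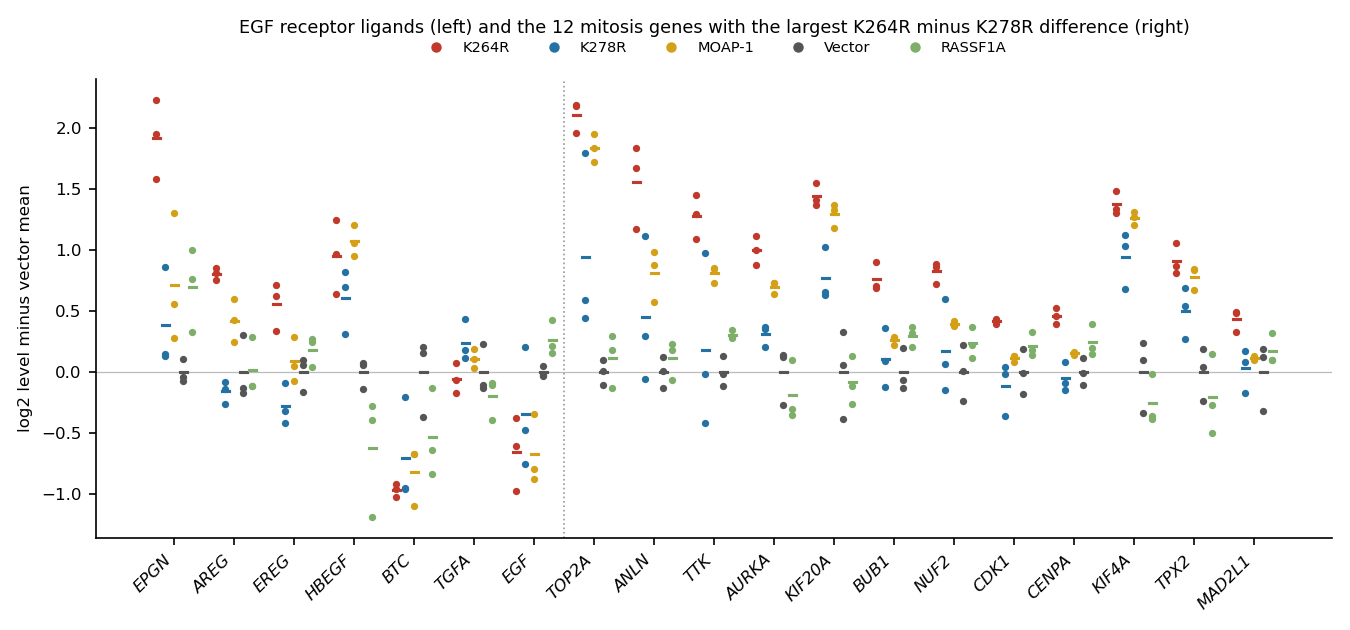
Each point is a tumor and each short line a mean of 3 tumors, with the log2 level minus the vector mean on the y axis, for the 7 EGF receptor ligands at their brightest probe (left of the dotted line) and the 12 mitosis genes with the largest difference (right). The K264R tumors lie above the K278R tumors for EPGN, AREG and EREG but not for BTC, TGFA or EGF, and the K278R tumors spread widely for TOP2A, ANLN and TTK.

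Promoters of the groups above are shown as a description, and control of their members through shared motifs was not tested. The windows hold 250 bases before and 50 after the RefSeq start in GRCh38.p14, and 17 of the 24 cholesterol genes and 30 of the 34 mitosis genes had one. Both strands were searched for CCAAT, bound by NF-Y, for TTTGAA, the core of the cell cycle homology region, and for TCACNCCAC, a sterol regulatory element. CCAAT stood in 14 of 17 cholesterol windows (82.4%) and 24 of 30 mitosis windows (80.0%), against 35.7% of all 27305. TTTGAA stood in 0 of 17 and 22 of 30 (73.3%), against 15.4%, and TCACNCCAC in 1 of 17 and 0 of 30, against 1.15%. In the EGF receptor ligands CCAAT stood in 3 of 7 windows (42.9%), TTTGAA in 2 and TCACNCCAC in 0. In the fatty acid genes CCAAT stood in 4 of 10 windows (40.0%), TTTGAA in 1 and TCACNCCAC in 0. A match of letters is a description and does not show binding. Only the given letters were searched, and only in these windows, so a missing match does not show that an element is absent. Capitals mark CCAAT and TTTGAA on either strand in HMGCS1 (chr5:43313363-43313662, minus strand), INSIG1 (chr7:155297628-155297927, plus), MSMO1 (chr4:165327419-165327718, plus), BUB1 (chr2:110678014-110678313, minus) and KIF23 (chr15:69414099-69414398, plus), each 5′ to 3′ along its gene.
HMGCS1: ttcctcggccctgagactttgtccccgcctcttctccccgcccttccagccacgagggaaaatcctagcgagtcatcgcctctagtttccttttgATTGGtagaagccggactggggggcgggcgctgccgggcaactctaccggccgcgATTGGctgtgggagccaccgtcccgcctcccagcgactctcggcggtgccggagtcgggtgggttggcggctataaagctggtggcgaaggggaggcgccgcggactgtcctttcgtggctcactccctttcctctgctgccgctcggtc
INSIG1: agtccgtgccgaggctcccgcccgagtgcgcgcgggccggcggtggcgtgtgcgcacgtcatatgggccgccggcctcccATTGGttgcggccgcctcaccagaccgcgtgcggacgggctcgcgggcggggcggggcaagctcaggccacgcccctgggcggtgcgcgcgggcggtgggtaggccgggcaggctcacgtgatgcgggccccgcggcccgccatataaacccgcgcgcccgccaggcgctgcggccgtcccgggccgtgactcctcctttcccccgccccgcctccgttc
MSMO1: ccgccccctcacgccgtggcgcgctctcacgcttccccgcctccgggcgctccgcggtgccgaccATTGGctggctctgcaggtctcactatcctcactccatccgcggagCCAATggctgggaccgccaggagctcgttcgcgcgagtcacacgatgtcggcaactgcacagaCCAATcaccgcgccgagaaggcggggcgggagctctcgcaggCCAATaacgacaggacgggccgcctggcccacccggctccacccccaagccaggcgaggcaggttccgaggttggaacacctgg
BUB1: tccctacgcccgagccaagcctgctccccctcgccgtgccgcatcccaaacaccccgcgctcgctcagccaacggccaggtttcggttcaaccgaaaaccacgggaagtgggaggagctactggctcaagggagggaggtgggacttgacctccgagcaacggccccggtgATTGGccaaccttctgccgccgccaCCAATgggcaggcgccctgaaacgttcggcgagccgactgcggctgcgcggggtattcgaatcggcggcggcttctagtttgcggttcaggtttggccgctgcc
KIF23: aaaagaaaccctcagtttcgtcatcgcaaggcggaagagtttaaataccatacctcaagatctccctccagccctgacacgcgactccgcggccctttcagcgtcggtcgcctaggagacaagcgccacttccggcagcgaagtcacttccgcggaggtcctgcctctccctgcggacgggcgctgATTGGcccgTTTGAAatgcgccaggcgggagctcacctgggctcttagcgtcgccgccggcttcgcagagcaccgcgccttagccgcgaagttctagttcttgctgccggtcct

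Each of the 3 sterol gene windows holds CCAAT, 2 times in HMGCS1, 1 time in INSIG1 and 4 times in MSMO1, and none holds TTTGAA. BUB1 has CCAAT 2 times and no TTTGAA, and KIF23 has 1 of each.

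Among the transcripts lower in K264R tumors, C5AR1, the receptor for complement fragment C5a, had the largest fall of those measured in all 6 tumors and called under both scalings. It measured -5.09, -5.55 and -5.04 in K264R and -3.77, -3.88 and -3.93 in K278R tumors, with no overlap, and vector tumors at -3.73 to -3.53. It fell by 1.37 on the log2 scale, 2.58-fold (SE 0.15, limma adjusted p = 0.00404), and its adjusted p was 0.016 under quantile normalization. Under the normexp background model, in which 0 genes were called, it was 0.16 higher in K264R, and fell by 0.87 (limma adjusted p = 0.00882) once spots of extreme local background were left out of that model (6 on K264R tumor 2, 6 on vector tumor 2 and 5 on vector tumor 3). PDZD8, which tethers the endoplasmic reticulum to other organelles, measured -0.30, -0.47 and -0.42 against 0.35, 0.41 and 0.23 and fell by 0.73 (adjusted p = 0.00768); it was named after its values were seen. AKAP12, a scaffold for protein kinase A, measured 2.91, 2.47 and 2.49 against 3.47, 3.47 and 3.42 and fell by 0.83 (adjusted p = 0.0299), but its other 2 probes differed by -0.25 and 0.03.

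Probes also disagreed for MXI1, a repressor that competes with MYC for MAX, which fell by 0.82 at one probe (adjusted p = 0.0348) and differed by -0.85 (adjusted p = 0.0726) and 0.23 at the others. BRD3, a reader of acetylated histones, fell by 0.94 at one probe (adjusted p = 0.0323), and its other 2 were -0.39 and -0.43. PHACTR2 fell by 0.81 at one of 3 probes. The further falls among the largest were GOLGA8EP, CNTNAP3, FBXL22, LOC100132077, CFAP92, H4C12 and SCARNA17, from -1.08 to -0.80. At other probes GOLGA8EP differed by 0.03 (limma adjusted p = 0.932) and CNTNAP3 by -0.38 and -0.19 (0.175 and 0.658). H4C12 differed by -0.84 at its other probe (adjusted p = 0.118). REC114 and STPG2 were not well above background in any K264R tumor but were in all 3 K278R tumors. They passed the filter on dim probes only through K278R, so their direction was set by that choice. With K264R tumors set no lower than the lowest signal well above background, they were 2.82-fold and 1.93-fold lower, values without an error. Under normexp without spots of extreme local background both differed by -0.71. Neither was called under quantile normalization. CNTNAP3, FBXL22, LOC100132077, REC114 and STPG2 had the opposite direction under the normexp background model and were lower again without those spots, REC114 with an adjusted p of 0.0539.

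Some small noncoding RNAs were among the genes called lower in K264R. SCARNA17, a guide for modification of spliceosomal RNA, measured -0.03, -0.23 and -0.09 in K264R and 0.96, 0.55 and 0.52 in K278R tumors (-0.80 ± 0.12, SE, limma adjusted p = 0.0173). TERC, the RNA template of telomerase, measured 2.95, 2.76 and 2.90 against 3.61, 3.56 and 3.61 (-0.72 ± 0.13, adjusted p = 0.0315), and RPPH1, the RNA of RNase P, fell by 0.99 (adjusted p = 0.0458). SCARNA9 and SCARNA1 were also called, and these 4 genes beside SCARNA17 were named after their values were seen. Under quantile normalization TERC, RPPH1 and SCARNA1 lost their calls (limma adjusted p = 0.0543, 0.0649 and 0.0953). Without K278R tumor 2 these 3 and SCARNA9 lost theirs (0.0571, 0.0896, 0.0756 and 0.0667). Of the 12 small Cajal body RNAs measured, 3 were called lower, against 0.386% of all genes, and the median was -0.48. On the lower side 8 did not overlap, against 26.8% of all genes. SCARNA1, among the 3 called, was well above background in only 2 K264R tumors but in all 3 K278R tumors. It passed the filter on dim probes only through K278R, a choice that favors a lower value in K264R. Of 17 small nucleolar, 4 small nuclear and 6 ribosomal RNA probes, 0 were called. Their medians were -0.33, -0.55 and -0.48, and -0.11, -0.41 and -0.10 under quantile normalization. Replication-dependent histones, also without a poly(A) tail, had a median of -0.33 over 41 genes and of -0.11 without K278R tumor 2, and H4C12 alone was called.

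The remaining lists had at most 1 called member each, where 0.201% of all genes were called higher at their brightest probe and 0.386% lower. POLR1B, a subunit of RNA polymerase I in the ribosome biogenesis list, rose by 0.63 ± 0.10 (SE, limma adjusted p = 0.0192). DNAJA1, a cochaperone in the heat shock list, rose by 0.73 ± 0.14 (SE, limma adjusted p = 0.0356). CEACAM5, an adhesion protein of colon epithelium, fell by 0.64 (limma adjusted p = 0.0264) at a level near the floor. Quantile normalization gave CEACAM5 a limma adjusted p of 0.138, and the normexp model gave it the opposite direction. DNAJA1 and CEACAM5 lost their calls without any 1 of the K264R tumors and without K278R tumor 1 or 2. POLR1B lost its call without K264R tumor 1 or 3 and without K278R tumor 1. Several lists with 0 called members had most genes higher in K264R, among them proteasome subunits (28 of 31, median 0.17), mitochondrial ribosome (31 of 36, 0.18), interferon-stimulated genes (30 of 38, 0.22), splicing factors (25 of 33, 0.15), respiratory chain (34 of 48, 0.07) and DNA damage repair (23 of 34, 0.16). Their unadjusted p in limma was below 0.05 for 12, 13, 12, 10, 6 and 17 genes, where 27.9% of all genes had such a p. BCL2 family, caspase, death receptor and p53 target genes had medians from -0.18 to 0.13 and 0 called genes, with an unadjusted p below 0.05 for 3, 3, 3 and 5. Ribosomal protein genes had a median of -0.19 here and 0.09 under quantile normalization, so their direction was not fixed.

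**Figure D5:**
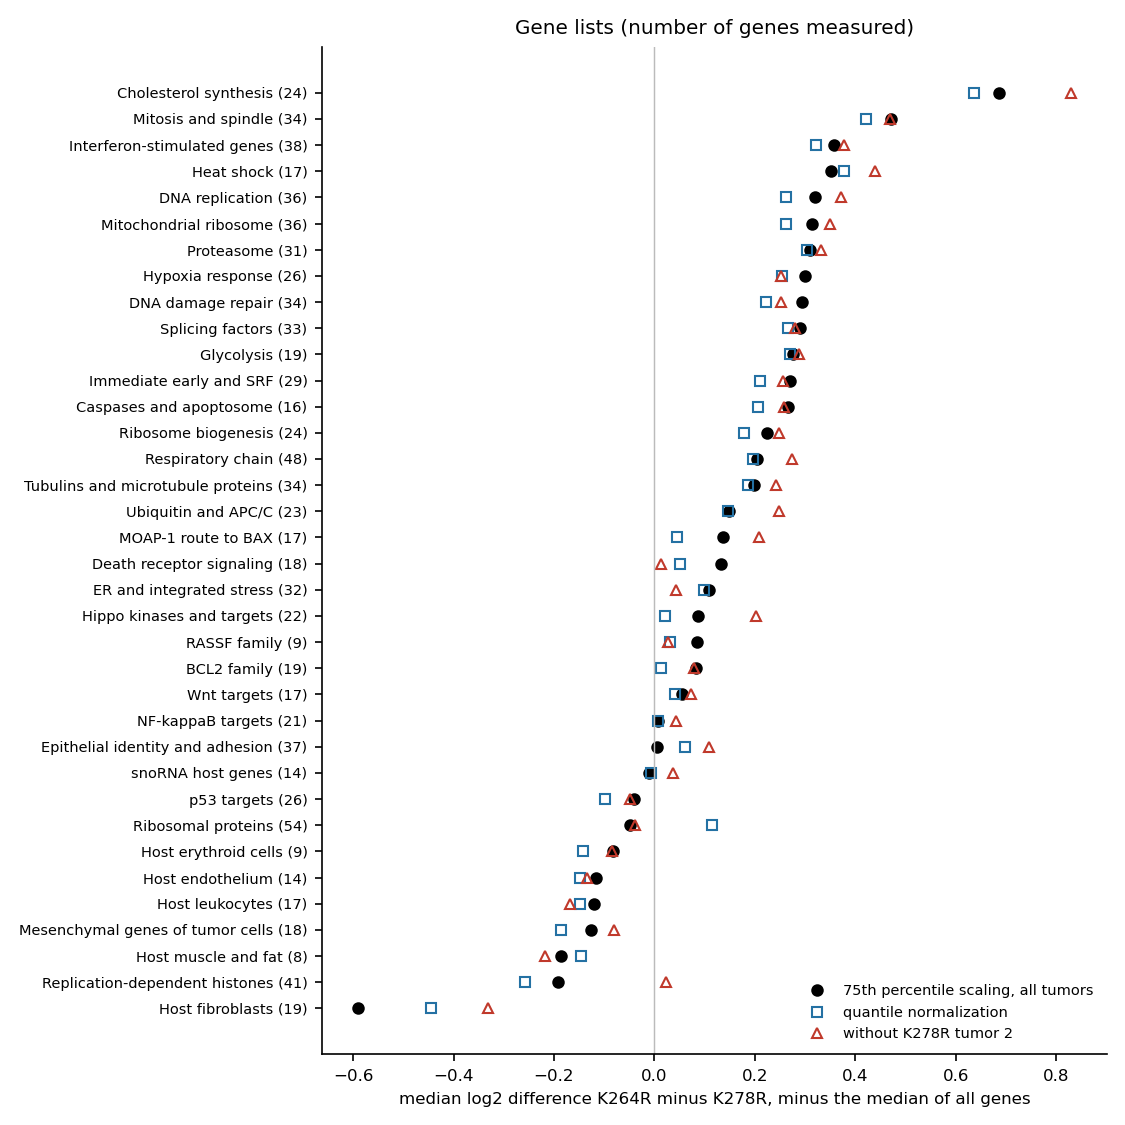
Each row is a gene list with the number of genes measured, and the x axis is the list's median log2 difference K264R minus K278R after the median of all genes is subtracted, for 3 ways of computing it. Cholesterol synthesis lies highest at 0.69 and host fibroblasts lowest at -0.59, and histones move to 0.02 without K278R tumor 2.

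Lists of host tissue genes had lower medians in K264R than in K278R tumors. Mouse stroma grows into xenografts, and its RNA can bind probes designed for human genes. Of 23 fibroblast genes, 19 were measured and 18 of them were lower in K264R, where 17051 of all 24877 genes were lower. Their median was -0.73, and -0.47 without K278R tumor 2, against -0.14 over all genes. Of the 19, 0 were called, and the unadjusted p was below 0.05 for 2 in limma, against 27.9% of all genes. For 5 of the 19, all 3 K264R tumors lay below all 3 K278R tumors, against 26.8% of all genes. Their mean level was -1.43 to -0.50 in K264R tumors and -0.62 to 0.14 in K278R tumors, so the groups overlapped. COL1A1, fibrillar collagen, measured 1.66, 3.78 and 1.48 in K264R and 3.27, 4.89 and 2.81 in K278R tumors. Medians of endothelial, leukocyte, erythroid and muscle or fat genes ran from -0.32 to -0.22. The mean level of the leukocyte list did not overlap, at -1.40 to -1.13 in K264R and -1.05 to -0.79 in K278R tumors. Of its 17 genes, 16 were lower and 0 were called. The unadjusted p was below 0.05 for 3 of them in limma, and 4 did not overlap on the lower side. The part of host RNA in the results above was not tested, and fewer cells of a type cannot be told apart from less RNA per cell.

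The named rises lay mostly on the K264R side of vector. The same fit against wild type MOAP-1 called 1 gene for K264R, which was lower, and 0 for K278R. Of the 64 genes called higher, all 3 K264R tumors were above all 3 vector tumors for 62, against 21.1% of all genes. All 3 K278R tumors were below vector for 12 and above it for 13, against 14.6% and 22.3% of all genes. The median difference from vector of the probes called higher was 0.79 in K264R and 0.02 in K278R. Of the 116 called lower, all K264R tumors were below vector for 97, against 31.2% of all genes, and all K278R tumors were above it for 38 and below it for 31. Their medians from vector were -0.72 in K264R and 0.08 in K278R. The largest rises outside the groups above were MATCAP2 (1.30), TAF1A (1.15), C5orf34 (1.01), C9orf40 (0.98) and SERPINI1 (0.96), all at limma adjusted p of 0.0348 or less. All 5 calls were lost under normexp without spots of extreme local background, where the differences were 0.26, 0.27, 0.35, 0.53 and 0.15 in that order, and without K264R tumor 1, K264R tumor 3 or K278R tumor 1. C9orf40 and TAF1A each had a brighter probe that was not called. It differed by 0.47 for C9orf40 (limma adjusted p = 0.0459) and by 0.76 for TAF1A (0.0524). TAF1A, a subunit of the RNA polymerase I initiation factor, was 0.44 from vector in K264R (adjusted p = 0.0601) and -0.71 in K278R (adjusted p = 0.0135). From wild type MOAP-1, MATCAP2, TAF1A, C5orf34, C9orf40 and SERPINI1 differed by 0.24, 0.39, 0.32, 0.62 and 0.22 in K264R (limma adjusted p of 0.343 or more). Both comparisons with vector share the vector tumors. All genes here were chosen by the mutant difference, so these values are a description.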

How the data were processed

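Total RNA of 15 HCT116 xenografts was labeled with Cy3 and hybridized to 1 array per tumor. The authors deposited, per array, scanner output of Agilent Feature Extraction (version 10.5.1.1 in the file headers, 9.1 in the submitters' processing notes), in which the processed signal is a background-corrected intensity. A log2 table, also deposited by the authors and scaled to each array's 75th percentile, served as an alternative. There, 8 columns followed the array of their label and 7 followed another array of the same construct.

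Spots flagged as outliers were removed, log2 signals were set to a 75th percentile of 0, and spots of a probe were averaged (34127 probes). A probe was kept if well above background in all 3 K264R or all 3 K278R tumors (30347 probes, 24877 genes); 29 of them lacked a value on some of the 6 arrays and were fitted on the rest. All 15 arrays were fitted in limma 3.58.1 (R 4.3.3) by lmFit and eBayes, modelling construct alone, and p-values were adjusted by Benjamini-Hochberg over the kept probes. A gene was called if any probe had an adjusted p below 0.05 and a 1.5-fold difference. In a list, the probe with the highest mean level stood for its gene. RefSeq (GRCh38.p14) named 74.5% of probes through their accessions, and the rest kept the accession.

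Named genes were MOAP1 and RASSF1, every called gene of the MOAP-1 list, up to 4 called members of each other list, the 12 largest rises and 12 largest falls that were called under 75th percentile and quantile scaling, measured on all 6 arrays and without overlap, and up to 4 genes per direction at background in 1 mutant. Members and lists were chosen with earlier results of these data known. Folds of genes at background in 1 mutant set the dim group at the higher of its own signal and the array's lowest signal well above background. The fit was tested on simulated data first. Alternatives covered the scaling, background model, filter on dim probes, samples in the fit, blocks, weights and each tumor left out. Some genes that this rule names are not reported here. No spot was saturated, and the number of arrays limits the precision.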

Additional observations from a re-analysis of the deposited data

Results flagged for a closer look

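The changes from vector differed between K264R and K278R for 180 genes in limma, by the test of the difference between the mutants. In the spike-in controls, which the comparison does not use, K278R tumor 2 stood at 0.97 against -1.17 to -1.09 in the vector tumors. No explanation was tested for either.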

How the results depend on the processing

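Counts are given as all genes, genes higher and genes lower in K264R, against 180, 64 and 116. With each of the 6 tumors left out in turn they ran from 6 to 1620, from 2 to 783 and from 4 to 841. Quantile normalization gave 145, 115 and 30, and the array median gave 128, 85 and 43. The authors' table gave 159, 85 and 74, array weights 2074, 667 and 1411, and the slide as a random block 943, 282 and 662. The array weights set K264R tumor 3 at 13.17, against 0.28 to 1.55 for the other tumors. The slide block had a correlation of -0.07. Because the K264R tumors had a slide of their own, that fit does not separate slide from mutant. The replicate block gave 89, 34 and 55, and 80 of the 89 genes were among the 180. Same-numbered tumors deviated together with r of 0.07, 0.19 and 0.16, so the numbers were not taken as pairs. The methods' t-test gave 904, 137 and 767 without adjustment and 0, 0 and 0 after Benjamini-Hochberg (19.6% of probes at an unadjusted p below 0.05). The normexp background model gave 0, 0 and 0 (7.71%), and only the 6 arrays gave 0, 0 and 0 (25.0%). In settings chosen after seeing the data, quantile normalization without K278R tumor 2 gave 72, 59 and 13, and the 5 other arrays alone gave 0, 0 and 0 (25.3%). The remaining settings (other filters on dim probes, normexp without spots of extreme local background, scan day, 1 probe per gene) stayed within 1.5 times of each count, from 142 to 239 genes, although 94 of the 239 under normexp without such spots were among the 180. The cause was not tested.

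Of the 31 named called genes, those at an adjusted p below 0.05 in limma numbered 3, 17 and 6 without K264R tumors 1, 2 and 3, and 4, 15 and 31 without K278R tumors 1, 2 and 3. The normexp model turned 7 of them: C5AR1 (0.16), CNTNAP3 (0.20), FBXL22 (0.37), LOC100132077 (0.35), REC114 (0.47), STPG2 (0.51) and CEACAM5 (0.59). Without 17 spots of extreme local background, on K264R tumor 2 and vector tumors 2 and 3, all 7 were lower in K264R, but 8 of the 31 lost their call, EPGN, MATCAP2, TAF1A, C5orf34, C9orf40 and SERPINI1 among the rises and REC114 and CEACAM5 among the falls. RASSF1, not called in any setting, was 0.0073 under quantile normalization, 0.0437 under the array median, 0.0371 under normexp without spots of extreme background and 0.005 in the authors' table, and ran from -0.1189 to 0.0396 with a tumor left out. The cholesterol list stayed above the median of all genes in all 23 settings, by 0.20 to 0.83, and the mitosis list by 0.06 to 0.54.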
